A study of Arabidopsis thaliana with 12 samples.

Results

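Heat shock proteins, the transcription factors that induce them and the cochaperones that work with them were described in sorted root tip cells of Arabidopsis thaliana on 12 arrays. The list held 46 loci of small heat shock proteins (small HSPs), HSP70s, HSP90s, HSP101, heat shock factors (HSFs) and cochaperones. A locus was taken as measured where a probe set of the array is assigned to that gene alone, and 11 of the 46 were, of 13286 loci measured in that way in all. The measured loci were 2 of 6 class I small HSPs, 2 of 4 organellar small HSPs, 2 of 5 cytosolic HSP70s and 5 of 9 cochaperones. The other 35 loci were not measured here, among them all listed class II small HSPs, HSP90s, HSP101 and HSFs of classes A and B. None of the statements that follow extends to those. Of the 11, 10 passed the filter on dim probe sets and were tested.

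The arrays are Affymetrix ATH1 arrays of cells sorted for green fluorescence from excised root tips of ecotype C24 seedlings 5 days old. All groups carry J0571, an enhancer trap with GAL4 and GFP active in the ground tissue, that is the cortex and the endodermis. In the BLJ, JKD and SCR groups GAL4 also drives a UAS copy of the transcription factor BLJ, JKD or SCR, which act in ground tissue patterning, and the control group is J0571 alone, all in a wild-type background. Each of the 4 groups had 3 arrays labelled as biological replicates, called here BLJ 1 to BLJ 3 and so on, and the labels do not say how many transformed lines stand behind a group. The driven factors are therefore limited to cells where J0571 is active, and the driver and the sort are shared with the control.

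Cells make heat shock proteins when proteins unfold, and the genes are switched on by HSFs that bind their promoters. Small HSPs hold unfolded proteins in a soluble state, HSP70s refold them with the help of J-proteins and exchange factors, and organizing cochaperones pass clients on to HSP90. HSFs are themselves held in check by chaperones, and the small HSP genes in particular are nearly silent in unstressed vegetative tissue of plants and strongly induced by heat.

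The deposited array medians ran from 0.785 to 0.866, 66.1% of all deposited values were under 1, and the unit has no stated scale. Similar medians did not mean similar widths. Controls 1, 2 and 3 had an SD over log2 deposited values of 0.705, 0.685 and 0.711, and SCR 2 one of 0.676. Each BLJ and JKD array, SCR 1 and SCR 3 had a larger SD, with JKD 2 (0.818) the smallest of these and JKD 1 (1.01) the largest. How far this unequal width enters the comparisons with the control, under any scaling, was not tested. The 4 listed cortex markers were all measured, and AT1G62500, AT1G62510, AT3G21670 and AT1G09750 stood at the 39.6th, 51.6th, 62.4th and 85.7th percentiles of level. Of 11 endodermis markers 2 were measured, AT1G61590 and GSO1, at the 96.8th and 96.3rd percentiles. BLJ (AT1G14580) averaged 0.804 ± 0.0211 in BLJ cells and 0.923 ± 0.0197 in control cells, and JKD (AT5G03150) averaged 0.838 ± 0.00712 in JKD cells and 0.859 ± 0.0353 in control cells (SD, n = 3). SCR had no probe set of its own. Whether these probe sets cover the driven copies is not given in the sources used here, so they do not check the labels. All levels here are quantile-normalized intensities on a linear scale, and differences are on the log2(value + 0.703) scale, which understates those of dim probe sets. Levels of different probe sets are not comparable with one another. In RNA from pooled sorted cells, a change in how many cells express a gene and a change per cell cannot be told apart.

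The class I small HSPs, which bind unfolded proteins in the cytosol, differed most from array to array. AT2G29500 measured 3.07, 1.86 and 4.73 in BLJ cells. It measured 1.08, 1.0 and 2.07 in JKD cells, 1.16, 0.827 and 1.31 in SCR cells, and 0.936, 1.59 and 4.19 in control cells, in the order of replicates 1 to 3. Within the BLJ, JKD and control groups, array 3 was clearly the highest, and control 3 stood above BLJ 1 and BLJ 2 while control 1 stood below BLJ 2. Its highest array was 5.72 times its lowest, the widest range of the 11 loci. On the deposited values control 3 (3.25) stood above BLJ 2 (1.95) but below BLJ 1 (3.78).

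AT1G53540, the other class I small HSP, measured 1.78, 1.24 and 2.87 in BLJ cells. It measured 0.805, 0.708 and 1.11 in JKD cells, 1.12, 0.737 and 0.907 in SCR cells, and 0.935, 0.960 and 2.08 in control cells. Every BLJ array stood above every JKD and every SCR array, but control 3 stood above BLJ 1 and BLJ 2. The gap between control 3 and the other controls was larger than that between the BLJ and control means of 1.96 and 1.32. On the deposited values control 3 (1.75) stood above BLJ 2 (1.27) but below BLJ 1 (2.05).

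Of the organellar small HSPs, AT5G51440, the mitochondrial one, measured 1.16, 0.905 and 1.27 in BLJ cells. It measured 0.834, 0.772 and 0.975 in JKD cells, 1.08, 0.793 and 0.908 in SCR cells, and 0.742, 0.811 and 1.12 in control cells. All groups overlapped. ATHSP22.0, a small HSP of the endoplasmic reticulum, lay between 0.697 (SCR 3) and 0.793 (SCR 1) on all arrays. Its mean level stood at the 27.9th percentile of all probe sets, and it was the locus left out by the filter.

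**Figure D1:**
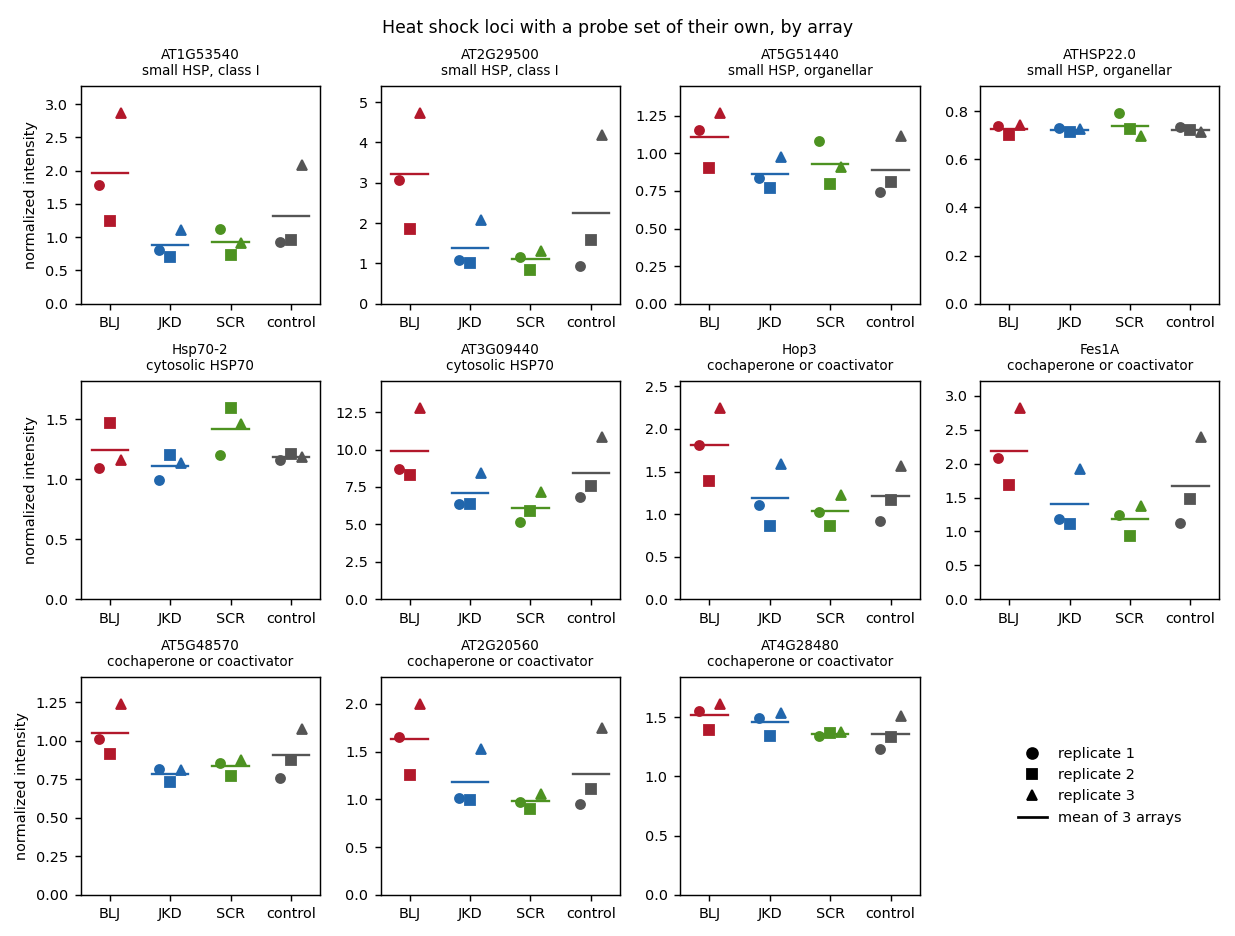
Normalized intensity (linear, from 0) of each of the 11 measured heat shock loci on the 12 arrays, by group; symbols give the replicate number and bars the mean of 3 arrays. After quantile normalization AT2G29500 runs from 0.827 on SCR 2 to 4.73 on BLJ 3, control 3 stands near BLJ 3 for several loci, and Hsp70-2 does not follow the others.

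The HSP70s, which bind and refold unfolded proteins with ATP, followed 2 different patterns after quantile normalization. AT3G09440, a cytosolic HSP70 at the 98.4th percentile of level, measured 8.72, 8.28 and 12.7 in BLJ cells. It measured 6.39, 6.36 and 8.45 in JKD cells, 5.16, 5.92 and 7.14 in SCR cells, and 6.81, 7.60 and 10.9 in control cells. Array 3 was the highest in each of the 4 groups, and no SCR array reached the lowest BLJ array.

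Hsp70-2, another cytosolic HSP70, measured 1.10, 1.47 and 1.16 in BLJ cells. It measured 0.995, 1.20 and 1.13 in JKD cells, 1.20, 1.59 and 1.46 in SCR cells, and 1.16, 1.21 and 1.19 in control cells. After quantile normalization its highest array was number 2 in every group, unlike AT3G09440, and its highest array of all was SCR 2. On the deposited values JKD 3 (1.19) stood above JKD 2 (1.17) and SCR 3 (1.55) above SCR 2 (1.36). SCR 3 was then its highest array of all. Cytosolic HSP70 genes are closely alike in sequence, so signal on either probe set can include RNA of another HSP70 gene, which was not tested.

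Among the cochaperones, Fes1A, which attends HSP70, measured 2.08, 1.69 and 2.81 in BLJ cells. It measured 1.18, 1.10 and 1.92 in JKD cells, 1.24, 0.938 and 1.37 in SCR cells, and 1.13, 1.48 and 2.4 in control cells. Again array 3 was the highest of its group each time, and control 3 stood above BLJ 1. On the deposited values control 3 (1.97) stood below BLJ 1 (2.43) and above BLJ 2 (1.76).

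Hop3, which links HSP70 and HSP90, measured 1.81, 1.38 and 2.24 in BLJ cells. It measured 1.10, 0.861 and 1.59 in JKD cells, 1.02, 0.856 and 1.23 in SCR cells, and 0.916, 1.16 and 1.57 in control cells. Of the 9 arrays of the other groups, JKD 3 and control 3 reached above BLJ 2. On the deposited values JKD 3 (1.74) did and control 3 (1.39) did not, with BLJ 2 at 1.43.

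AT4G28480, a J-protein of the kind that brings clients to HSP70, measured 1.55, 1.39 and 1.61 in BLJ cells. It measured 1.49, 1.34 and 1.54 in JKD cells, 1.34, 1.37 and 1.37 in SCR cells, and 1.23, 1.33 and 1.51 in control cells. Its highest array was only 1.31 times its lowest. Control 3 stood above BLJ 2, but on the deposited values control 3 (1.34) stood below BLJ 2 (1.44). The J-protein AT2G20560 ran from 0.902 (SCR 2) to 2.0 (BLJ 3), and AT5G48570, a peptidyl-prolyl isomerase also named ROF2, from 0.729 (JKD 2) to 1.24 (BLJ 3).

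The arrays of one group followed a shared order across these loci. Control 3 was the highest control array for 9 of the 10 tested loci, against 37.6% of all 15922 tested probe sets, and control 1 was the lowest for 10 of 10, against 32.0%. BLJ 3 was the highest BLJ array for 9 of 10, against 34.0%, and JKD 3 the highest JKD array for 8 of 10, against 37.7%. In SCR cells the order was less even, with SCR 3 highest for 7 of 10, against 36.5%. BLJ 3 was the highest of all 12 arrays for 9 of the 10, against 10.9% of all tested probe sets. The third array was the highest in all 4 groups for 6 of 10 loci, against 3.51% of all tested probe sets. Hsp70-2 was the one locus highest on the second array in all 4 groups, against 3.10% of all tested probe sets. These orders were counted after quantile normalization, and that of Hsp70-2 did not hold on the deposited values. These counts describe loci that share arrays, so they carry no test. The labels name a labelling with 1 round of amplification and one with more, without saying which array had which, so its part in this order was not tested.

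**Figure D2:**
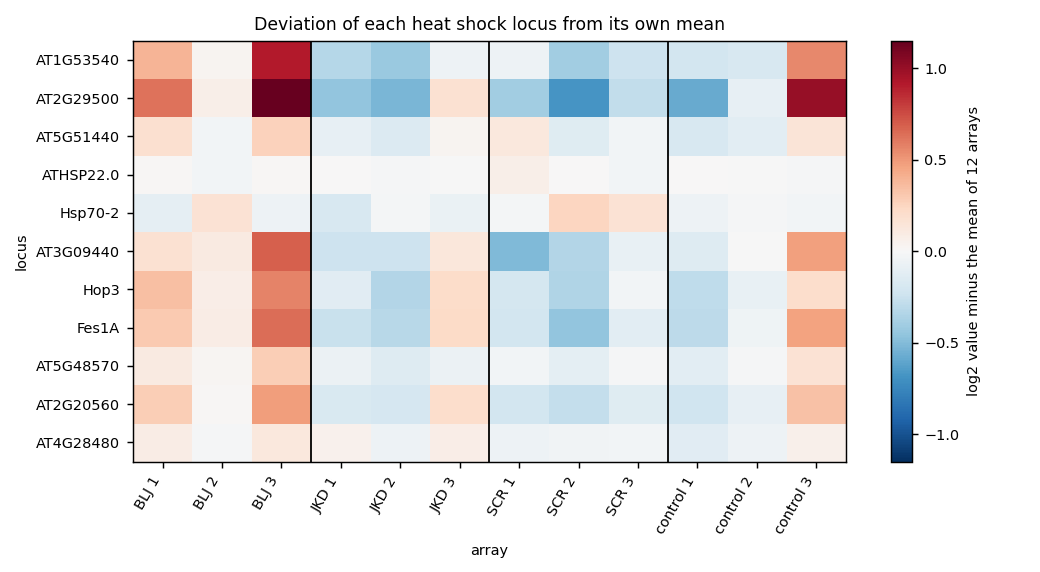
Log2 value of each heat shock locus (rows) on each array (columns) minus its own mean over the 12 arrays; red is above and blue below that mean. Of the 10 tested loci, 9 are above their mean on BLJ 1, BLJ 3 and control 3, 8 on BLJ 2 and 7 on JKD 3, with AT2G29500 and AT1G53540 the strongest on BLJ 3 and control 3; Hsp70-2 is below its mean on BLJ 1, BLJ 3 and control 3 and reddest on SCR 2.

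The spread between arrays of one group was wide for these loci. The median SD within groups was 0.23 (log2) over the 10 tested loci and 0.047 over all tested probe sets, and 6 of the 10 lay above the 90th percentile. AT2G29500 stood at the 99.9th percentile of spread, AT1G53540 at the 99.5th, Fes1A at the 98.9th and AT3G09440 at the 98.4th, against the 68.6th for AT4G28480. The tested loci lay between the 57.6th and 98.4th percentiles of mean level, and this comparison was not matched on level.

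**Figure D3:**
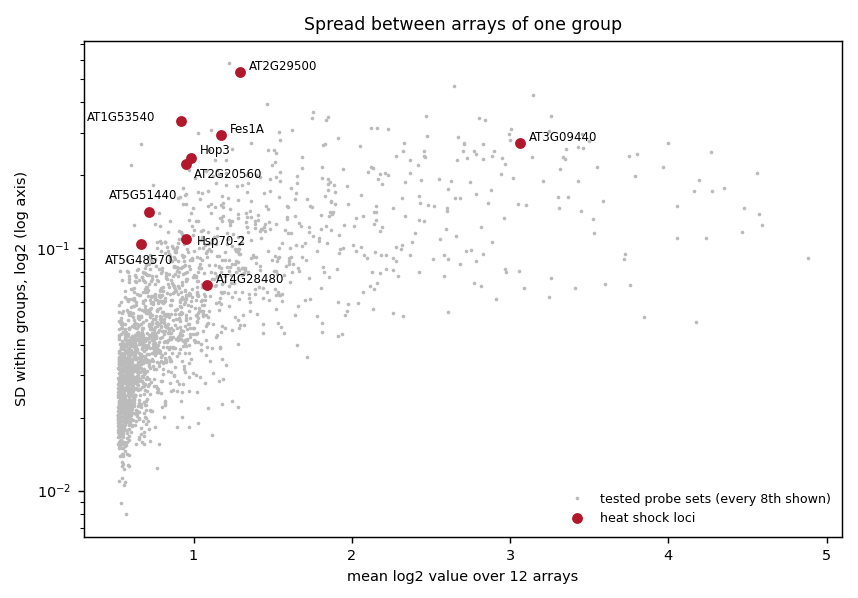
SD between arrays of one group (log2, log axis) against mean log2 value over 12 arrays, for the 10 tested heat shock loci (red) and every 8th tested probe set (grey). Most red points lie on the upper edge of the grey cloud at their level, AT2G29500 highest, and AT4G28480 lies within it.

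Cells driving BLJ had higher mean levels of all 10 tested loci than control cells, but no locus passed the test. With limma across all tested probe sets, 0 of 10 were called at a Benjamini-Hochberg adjusted p under 0.05, where 4.25% of all tested probe sets were called. Hop3 had the smallest adjusted p, with 1.81 ± 0.43 in BLJ cells and 1.21 ± 0.33 in control cells (SD, n = 3) and a difference of 0.39 ± 0.16 (SE, limma adjusted p = 0.208). For AT2G29500 the levels were 3.22 ± 1.44 in BLJ cells and 2.24 ± 1.72 in control cells, and the difference of 0.51 had a 95% interval from -0.36 to 1.37. The median difference over the 10 was 0.24, against 0.00 over all tested probe sets. At an unadjusted p under 0.05 there was 1 locus of 10, against 19.1% of all tested probe sets. No locus had every BLJ array above every control array, against 10.7% of tested probe sets. This count moved with control 3 and with the scaling. Without control 3, 9 of 10 loci had every BLJ array above both remaining controls, against 19.3% of tested probe sets, and still 0 were called. Without BLJ 2 the count was 3 of 10, against 18%. With all arrays kept it was 4 of 10 on the deposited values, against 29.0%, and 4 of 10 with median centring, against 41.0%. On the deposited values and with median centring in place of quantile normalization, AT3G09440 and AT4G28480 were called, where 18% and 16% of all tested probe sets were. With the replicate number as a block, Hop3 was called, where 5.07% of all tested probe sets were. The numbers were not taken as pairing the BLJ and control arrays.

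Cells driving JKD differed from control cells at none of the 10 loci by the test, where 2.74% of all tested probe sets were called. The smallest adjusted p was 0.423, for AT5G48570, which measured 0.786 ± 0.049 in JKD cells and 0.905 ± 0.160 in control cells (limma, n = 3). At an unadjusted p under 0.05 there were 0 loci of 10, against 19.1% of tested probe sets. No locus had every JKD array above every control array, against 11.9% of tested probe sets. In the other direction, 0 of 10 had every JKD array below every control array, and the share of all tested probe sets for that is not given here. The median difference was -0.08. The sign is not settled, since 1 of 10 differences was positive after quantile normalization, against 6 on the deposited values and 7 with median centring, where AT4G28480 was called beside 24.2% of all tested probe sets. With the replicate number as a block over all 12 arrays, 0 were called, where 3.30% of all tested probe sets were. The smallest limma adjusted p was then 0.221. The numbers were taken as pairing the JKD and control arrays, and the test without the block did not use that pairing.

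Cells driving SCR likewise had 0 of 10 loci called against control cells, where 0.396% of all tested probe sets were called. AT3G09440 measured 6.07 ± 1.0 in SCR cells and 8.43 ± 2.15 in control cells, a difference of -0.42 ± 0.19 (SE, limma adjusted p = 0.299). Hsp70-2 ran the other way, with 1.42 ± 0.20 in SCR cells and 1.19 ± 0.027 in control cells, a difference of 0.16 ± 0.08 (SE, limma adjusted p = 0.299). These were the 2 loci at an unadjusted p under 0.05, against 16.6% of tested probe sets. No locus had every SCR array above every control array, against 9.55%. On the deposited values Hsp70-2 did, against 12.1%, and with median centring 1 locus did, against 15.9%. In the other direction, 0 of 10 had every SCR array below every control array, and the share of all tested probe sets for that is not given here. The median difference over the 10 was -0.17. With the replicate number as a block, 0 were called, where 1.29% of all tested probe sets were. The smallest limma adjusted p was then 0.057. The numbers were not taken as pairing the SCR and control arrays. The 3 comparisons with the control share its arrays, control 3 included.

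The comparison of BLJ with SCR cells gave the widest differences. Every BLJ array stood above every SCR array for 8 of the 10 loci, against 12.6% of all tested probe sets, the exceptions being AT5G51440 and Hsp70-2. The median difference was 0.49, against 0.00 over all tested probe sets, and 7 of 10 loci were at an unadjusted p under 0.05, against 16.4%. After adjustment 0 of 10 were called, where 1.55% of all tested probe sets were. AT3G09440 came closest, with 9.92 ± 2.46 in BLJ cells and 6.07 ± 1.0 in SCR cells and a difference of 0.63 ± 0.19 (SE, limma adjusted p = 0.127). AT2G29500 had the largest difference, 1.07 with a 95% interval from 0.20 to 1.93 (limma adjusted p = 0.213). Hsp70-2 was the one locus with a negative difference, -0.13 ± 0.08 (SE). With any single array left out, 8 or 9 loci had every BLJ array above every SCR array and 0 were called. The 9 came without BLJ 2, against 22% of tested probe sets, and without SCR 3 there were 8, against 18.4%. With the replicate number as a block, 5 of 10 loci were called, against 4.04% of all tested probe sets. The numbers were not taken as pairing the BLJ and SCR arrays.

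Between BLJ and JKD cells all 10 differences were positive, with a median of 0.36, and 0 were called, where 1.71% of all tested probe sets were. At an unadjusted p under 0.05 there were 7 of 10, against 12.1%. AT5G48570 measured 1.05 ± 0.17 in BLJ cells and 0.786 ± 0.049 in JKD cells, a difference of 0.23 ± 0.07 (SE, limma adjusted p = 0.133). It was called on the deposited values and without control 3, which enters through the shared estimate of spread (limma adjusted p = 0.049 and 0.045). Under these settings 2.15% and 2.96% of all tested probe sets were called. AT5G48570 and AT1G53540 were the 2 loci with every BLJ array above every JKD array, against 10.4% of tested probe sets. That count was 9 without BLJ 2, against 19.8%, and 8 without JKD 3, against 15.9%. With the replicate number as a block, 5 of 10 loci were called, against 3.32% of all tested probe sets. The numbers were not taken as pairing the BLJ and JKD arrays.

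JKD and SCR cells had 0 of 10 loci called, where 0.490% of all tested probe sets were, and a median difference of 0.09. No locus had every JKD array above every SCR array, against 10.6% of tested probe sets. Hsp70-2 was the one locus at an unadjusted p under 0.05, against 10.5% of tested probe sets, with 1.11 ± 0.11 in JKD cells and 1.42 ± 0.20 in SCR cells (SD, n = 3) and a limma adjusted p of 0.302. With 3 arrays a group, intervals were wide: for AT2G29500 the difference between JKD and SCR cells lay between -0.68 and 1.05.

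**Figure D4:**
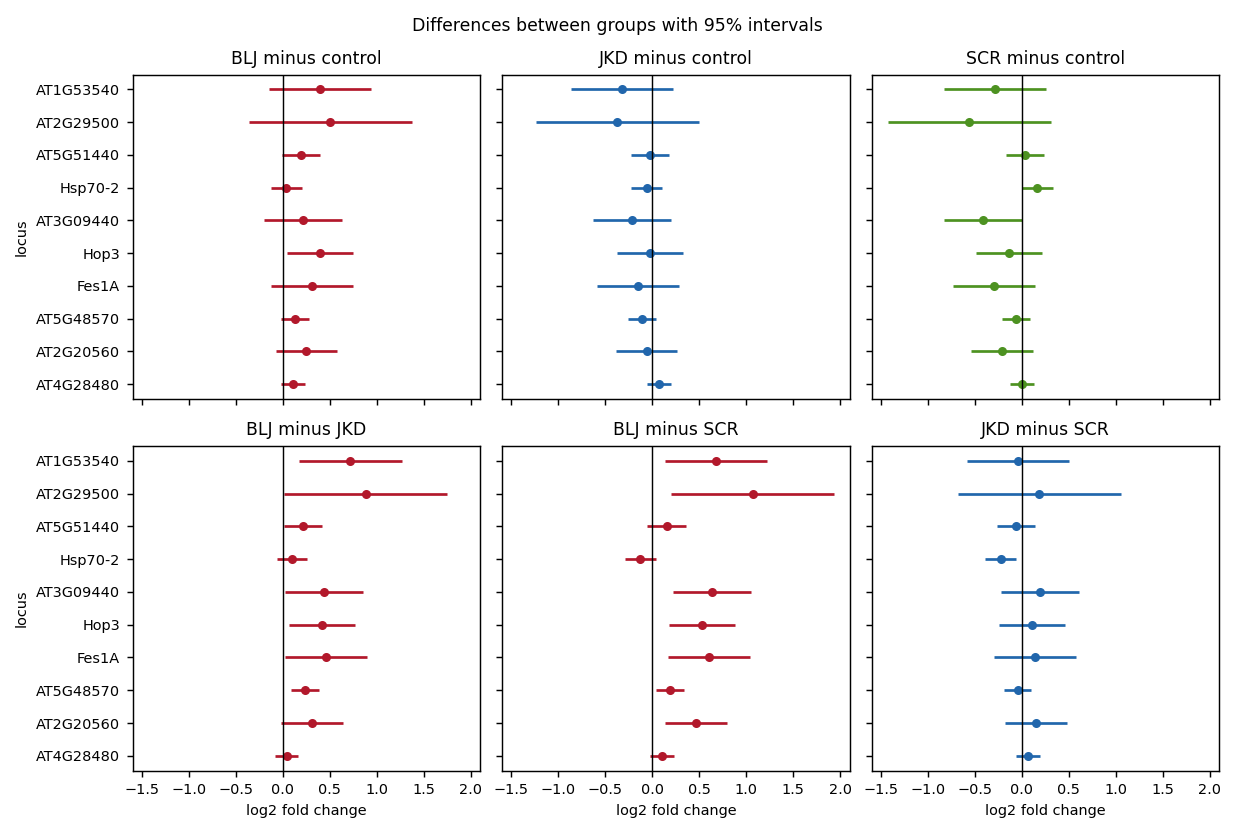
Differences of the 10 tested heat shock loci in the 6 comparisons (log2, first line minus second group), with 95% intervals from limma over 12 arrays. The BLJ comparisons lie mostly right of 0, widest for AT2G29500 against SCR at 1.07, and none passed the adjusted test.

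Chaperone genes outside the list gave a mixed picture. Of 42 further chaperone and HSF loci, 16 were measured, all of them small HSPs, HSP70s or cochaperones, so no HSF was measured here either. Of the 16, 13 were tested, and 0 were called in any of the 6 comparisons. Per comparison, 0.396% to 4.25% of all tested probe sets were called. AT1G54050, a further small HSP, measured 2.64, 2.02 and 3.50 in BLJ cells. It measured 0.845, 0.746 and 1.5 in JKD cells, 1.12, 0.816 and 1.15 in SCR cells, and 0.828, 1.09 and 2.48 in control cells. That is the same order of arrays as for AT2G29500, with control 3 high and BLJ 2 low in their groups. Its difference between BLJ and SCR cells was 0.97 ± 0.27 (SE, limma adjusted p = 0.114), and that of AT3G14200, a J-protein, was 0.61 ± 0.18 (SE, limma adjusted p = 0.108). Of the 13, 5 had every BLJ array above every SCR array, against 12.6% of all tested probe sets, and 5 were at an unadjusted p under 0.05 in that comparison, against 16.4%. The median difference of the 13 between BLJ and SCR cells was 0.02, and that of the 10 listed loci 0.49. HSA32, a heat-induced protein that is no chaperone and the 1 of 7 such loci measured, had 0 calls, with a smallest adjusted p of 0.091 between JKD and control cells.

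Of 11 listed folding genes of the endoplasmic reticulum, 4 were tested and 0 were called, where 0.396% to 4.25% of all tested probe sets were called per comparison. The 4 genes differed among themselves in the order of arrays. Control 3 was the highest control array for 1 of the 4 and the lowest for 2, against 37.6% and 37.9% of all tested probe sets. CRT1b, which encodes the chaperone calreticulin, measured 7.58, 8.80 and 7.63 in BLJ cells. It measured 10.6, 9.44 and 9.06 in JKD cells, 9.30, 9.24 and 9.44 in SCR cells, and 10.5, 8.94 and 5.39 in control cells. Its lowest array was thus control 3, where most heat shock loci were highest among controls. The transcription factor BZIP28 by contrast was highest on array 3 in every group, with 2.46, 2.31 and 2.68 in BLJ cells. It measured 2.08, 1.82 and 2.39 in JKD cells, 2.10, 1.71 and 2.21 in SCR cells, and 2.24, 1.77 and 2.58 in control cells.

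Of 19 early wound and touch response loci, 2 were tested, STZ and WRKY53. In the 6 comparisons 0 were called, where 0.396% to 4.25% of all tested probe sets were. STZ, a zinc finger repressor of stress responses, measured 5.79, 4.0 and 4.25 in BLJ cells and 5.58, 7.99 and 7.39 in control cells, a difference of -0.52 ± 0.18 (SE, limma adjusted p = 0.125). WRKY53 had its smallest adjusted p in the same comparison, at 0.275.

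Markers of cell types also differed between arrays. The summed level of the 2 of 6 epidermis markers measured ran from 1.75 to 1.84 in BLJ cells, 1.55 to 1.57 in JKD cells, 1.42 to 1.53 in SCR cells and 1.61 to 2.18 in control cells, with control 3 the highest of all. For the 1 of 4 root cap markers measured, levels ran from 0.905 to 1.07 in BLJ cells, 1.01 to 1.42 in JKD cells, 0.825 to 0.934 in SCR cells and 0.932 to 1.42 in control cells, and control 3 was again the highest control. The 4 cortex markers summed to between 4.75 and 4.98 in BLJ cells, 4.12 and 4.32 in JKD cells, 3.99 and 4.22 in SCR cells and 3.51 and 4.10 in control cells. AT1G09750, the brightest of the 4, weighs most in these sums. AT1G09750 and AT3G21670 were called higher in BLJ than in control cells (limma adjusted p = 0.016 and 0.047), where 4.25% of all tested probe sets were called. AT3G21670 was also called higher in BLJ than in JKD and SCR cells (limma adjusted p = 0.018 and 0.043), where 1.71% and 1.55% were. AT1G62510 and AT1G62500 were not called, and AT1G62500 averaged 0.748 in BLJ, 0.766 in control and 0.805 in SCR cells. The 2 of 11 endodermis markers summed to between 6.83 and 11.4 in BLJ cells, 9.85 and 12.6 in JKD cells, 7.49 and 10.3 in SCR cells and 9.03 and 11.8 in control cells. In the 6 comparisons 0 of them were called, where 0.396% to 4.25% of all tested probe sets were. The 2 of 12 stele markers summed to between 1.70 and 1.94 in BLJ cells, 1.85 and 2.03 in JKD cells, 2.03 and 2.29 in SCR cells and 1.81 and 2.04 in control cells. Of them OPS was called lower in BLJ than in control cells (limma adjusted p = 0.037). The other, LHW, averaged 1.11 in BLJ and 1.10 in control cells and was not called. No measured marker was listed at 0 on any array. The part of cell types in the order of arrays or in the BLJ differences was not tested.

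**Figure D5:**
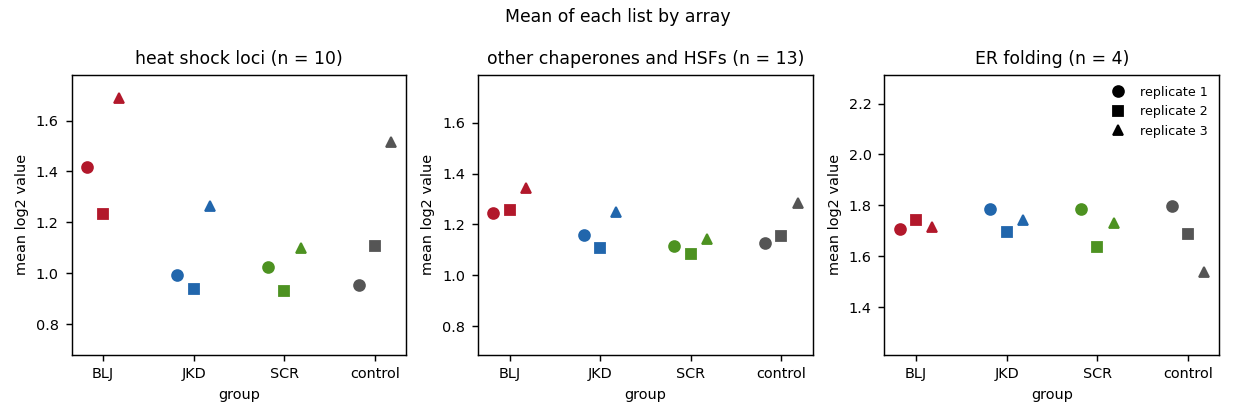
Mean log2 value by array for 3 lists of genes after quantile normalization, by group, on axes that do not start at 0. The heat shock panel runs from 0.93 on SCR 2 to 1.69 on BLJ 3, with control 3 at 1.52 above BLJ 1 at 1.42; the further chaperones also have replicate 3 highest in each group, over a narrower range, while the folding genes of the endoplasmic reticulum are lowest on control 3.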

How the data were processed

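Per the submitters' processing notes, MAS5 made the deposited values, with no version, scaling or centring stated. The table the authors deposited holds 1 linear intensity per probe set and array for 22801 probe sets, and 0 of its columns were left unused. Groups and replicate numbers came from the titles. After quantile normalization, log2 was taken of each value plus an offset of 0.703, which is their 20th percentile. Without the 55 control probe sets and the dimmest 30% of the rest, 15922 were tested.

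Groups were compared with limma 3.58.1 (R 4.3.3) in a fit of 4 group means to the 12 arrays, with eBayes (trend and robust), and p-values were adjusted by Benjamini-Hochberg over all tested probe sets; a call is an adjusted p under 0.05. The fit was tested on simulated data with independent noise. Those data held no deviation shared between probe sets or same-numbered arrays, so that check does not bear on the shared order of arrays. Arrays give no read depth, so their number limits the precision, and p-values measure only the spread between these samples.

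Genes were named through the platform's annotation and, for current symbols, the RefSeq table of assembly TAIR10.1, used for names only. Roles come from the locus lists and general knowledge. The brightest single-gene probe set stood for a locus, but no listed locus had more than 1. The 46 loci and the other lists were chosen with earlier results of these data known. Every listed locus may be named. Values on all arrays are given for called loci, and for the 2 brightest and the 2 of widest range per role; AT1G54050, CRT1b and BZIP28 are described with values after they were seen. Of other lists, up to 2 called members per direction, or the 2 with the smallest p, are named. Promoter and protein sequences were not used here.

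Same-numbered arrays were checked for shared deviations from their group means. Of 18 pairs, 12 had a correlation over 0.1, within a range from -0.19 to 0.62. In JKD against control all 3 pairs passed that limit (0.28, 0.32 and 0.39), so the numbers were taken as pairing those arrays; in the other comparisons they were not. Alternatives were the deposited values, median centring, no offset, values under 1 set to 1, no filter, the 6 arrays of a comparison alone, a replicate block and each array left out.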

Additional observations from a re-analysis of the deposited data

How the results depend on the processing

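Calls of the 10 tested loci stayed at 0 in all 6 comparisons with no offset, with values under 1 set to 1, without the filter and with the 6 arrays of a comparison alone. In BLJ against control, 2 loci were called on the deposited values (AT3G09440 at 0.76 and AT4G28480 at 0.26), 2 with median centring (0.81 and 0.31) and 1 with a replicate block (Hop3), where 5.07% of all tested probe sets were called. JKD against control gave 1 call with median centring (AT4G28480 at 0.28). BLJ against JKD gave 1 call on the deposited values (AT5G48570), where 2.15% of all tested probe sets were called. With a replicate block it gave 5 (AT1G53540, AT3G09440, Hop3, Fes1A and AT5G48570), against 3.32% of all, and BLJ against SCR gave 5 (AT2G29500, AT3G09440, Hop3, Fes1A and AT2G20560), against 4.04%, with a smallest limma adjusted p of 0.0033. In these comparisons not every same-numbered pair passed the limit of 0.1. The correlations were -0.13, 0.62 and 0.52 in BLJ against control. They were 0.02, 0.21 and 0.23 in BLJ against JKD, and 0.18, 0.43 and 0.09 in BLJ against SCR. Of the 6 arrays, 4 in BLJ against control, 2 in BLJ against JKD and 3 in BLJ against SCR correlated best with the array of their own number. In JKD against control, taken as paired, it was also 4. The cause was not tested. Leaving out each array gave 0 calls in the other comparisons and 0 to 1 in BLJ against JKD. The 1 came without control 3, where 2.96% of all tested probe sets were called. The block changed no other call.

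Of 420 fold changes (log2) under the settings that keep all arrays, 12 reversed. In JKD against control these were, on the deposited values, Hsp70-2 at 0.013, AT3G09440 at 0.33, Hop3 at 0.075, Fes1A at 0.024 and AT2G20560 at 0.040, and, with median centring, AT5G51440 at 0.011, Hsp70-2 at 0.065, AT3G09440 at 0.38, Hop3 at 0.13, Fes1A at 0.076 and AT2G20560 at 0.091. In SCR against control, AT5G51440 reached -0.014 with values under 1 set to 1. Of 720 fold changes with 1 array left out, 22 reversed, at the following ranges over the 12 arrays left out. In BLJ against control, Hsp70-2 ran from -0.045 to 0.087. In JKD against control, AT2G29500 ran from -0.73 to 0.075, AT5G51440 from -0.091 to 0.080, Hop3 from -0.17 to 0.10, Fes1A from -0.33 to 0.056 and AT2G20560 from -0.18 to 0.11. In SCR against control, AT5G51440 ran from -0.030 to 0.14, AT5G48570 from -0.13 to 0.014 and AT4G28480 from -0.042 to 0.056. In BLJ against JKD, AT4G28480 ran from -0.00018 to 0.080. In JKD against SCR, AT1G53540 ran from -0.14 to 0.044, AT2G29500 from -0.036 to 0.32, AT5G51440 from -0.12 to 0.0079, Hop3 from -0.042 to 0.24 and Fes1A from -0.025 to 0.24. The number of all probe sets called moved more: in BLJ against control 676 were called, against 2940 on the deposited values, 2528 with median centring, 167 with values under 1 set to 1 and 34 with 6 arrays alone. In JKD against control the count was 437, against 4016, 3847, 25 and 13 in that order. The cause was not tested. Counting every single-gene probe set of a locus was not run, since no listed locus had more than 1. With most values under 1, dim loci such as ATHSP22.0 have little signal over background.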

Other observations

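A pair of the listed class I small HSP loci share a probe set, so it stands for neither and was left out of the counts. It measured 2.0, 1.25 and 2.80 in BLJ cells, 0.862, 0.759 and 1.27 in JKD cells, 0.986, 0.798 and 0.966 in SCR cells, and 0.798, 1.04 and 2.16 in control cells. Within the BLJ, JKD and control groups the third array was the highest, and control 3 stood above BLJ 1 and BLJ 2 after quantile normalization. Its difference between BLJ and SCR cells was 0.71 ± 0.25 (SE, limma adjusted p = 0.202), and between BLJ and control cells 0.43 ± 0.25 (SE, limma adjusted p = 0.398), so it was called in neither.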
